A study of Mus musculus with 18 samples.

Results

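The chemokines described here are Ccl2, Ccl5, Ccl7, Cxcl1, Cxcl12, Cxcl16 and Cx3cl1, 7 genes chosen by symbol as chemokines that endothelial cells (ECs) can make, out of 16248 genes in a table of 18 RNA-seq libraries. All 7 symbols were in the table and all 7 passed the filter on low values. The libraries were made from live CD45-negative, CD31-positive cells sorted from 3 tissues of female FVB mice: the mammary fat pad of wild-type animals (normal ECs), breast tumours that arose in MMTV-PyMT mice (MMTV-PyMT ECs) and tumours grown in the fat pad of FVB females after implantation of cultured MMTV-PyMT tumour cells in Matrigel (implanted ECs). Each tissue was injected with PBS or with cGAMP, a cyclic dinucleotide that activates STING, and collected 3 h later, giving 6 groups of 3 libraries. The MMTV promoter drives the middle T antigen of polyoma virus mainly in mammary epithelium, so in the transgenic mice the ECs belonged to the transgenic animal, while those of implanted tumours came from a wild-type host. The labels give no age of the animals, and the study's methods place the transgenic mice at treatment and the hosts at implantation in young adulthood. The columns of the normal fat pad carry no tissue name and were assigned because the other columns named both tumour types, which limits every comparison with normal ECs. The samples are sorted populations, so fewer cells expressing a gene and less RNA per cell cannot be told apart.

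Chemokines are small secreted or membrane-bound proteins that bind G protein-coupled receptors on leukocytes and direct their migration. On vessel walls they are displayed by ECs, often bound to glycosaminoglycans, and help turn a rolling leukocyte into one that adheres and crosses the endothelium. STING, activated by cyclic dinucleotides, signals through TBK1 to IRF3 and NF-kB, which induce type I interferon and inflammatory genes. The family is divided by the spacing of the first cysteines of the mature protein into CC, CXC and CX3C classes.

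That spacing can be read in the coding sequence of each gene, and the stretches are shown because they define the classes by which the results are ordered. Each stretch lies in exon 2 of the GENCODE transcript (mouse build GRCm38), runs 5′ to 3′ on the coding strand, and has the codons of the first pair of cysteines of the mature protein in capitals. The cysteine codons are adjacent in the CC class, separated by 1 codon in the CXC class and by 3 codons in the CX3C class.
Ccl2 (chr11:82036497-82036538, plus strand): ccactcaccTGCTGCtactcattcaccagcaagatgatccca
Ccl5 (chr11:83529215-83529256, minus strand): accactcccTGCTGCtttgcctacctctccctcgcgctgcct
Ccl7 (chr11:82046529-82046570, plus strand): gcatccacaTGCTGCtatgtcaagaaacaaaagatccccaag
Cxcl1 (chr5:90891487-90891531, plus strand): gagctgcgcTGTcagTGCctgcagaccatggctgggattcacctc
Cxcl12 (chr6:117171499-117171543, plus strand): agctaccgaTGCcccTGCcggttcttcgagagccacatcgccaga
Cxcl16 (chr11:70459100-70459144, minus strand): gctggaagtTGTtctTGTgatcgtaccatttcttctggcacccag
Cx3cl1 (chr8:94778042-94778092, plus strand): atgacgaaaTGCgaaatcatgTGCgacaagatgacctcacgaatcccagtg
The coding sequences held 91 to 148 codons for Ccl5, Cxcl1, Ccl7, Cxcl12 and Ccl2, which encode secreted proteins. They held 246 codons for Cxcl16 and 395 for Cx3cl1, whose products carry the chemokine domain on a mucin-like stalk anchored in the membrane.

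By position, Ccl2 (chr11:82035571-82037453, plus strand) and Ccl7 (chr11:82045712-82047525, plus strand) lay 8258 bases apart in the same chemokine cluster, with Ccl11 20369 bases and Ccl8 77731 bases from Ccl2. Ccl5 (chr11:83525778-83530518, minus strand) lay 42400 bases from Ccl9 and 57363 bases from Ccl6. Cxcl1 (chr5:90891241-90893115, plus strand) lay 10755 bases from Cxcl2. Cx3cl1 (chr8:94772009-94782427, plus strand) lay between Ccl22, 20309 bases away, and Ccl17, 28025 bases away. Cxcl12 (chr6:117168535-117181367, plus strand) and Cxcl16 (chr11:70453983-70459984, minus strand) had no listed chemokine within 500000 bases. Cxcl16 shared 552 exonic bases with Zmynd15 on the opposite strand. Zmynd15 ranged from 0.0481 to 1.75 FPKM (fragments per kilobase of transcript, scaled here by a size factor of each library rather than its read total), and whether reads were assigned by strand is not given in the sources used here.

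RefSeq windows around the start (GRCm38.p6) were at hand for Cxcl1, Cxcl12 and Cx3cl1, and the upstream bases are shown because these genes responded very differently to cGAMP. Capitals in the Cxcl1 sequence mark the bases of a kB motif, the NF-kB binding element, which matched on both strands 71 to 62 and 70 to 61 bases before the RefSeq start, the matches overlapping.
Cxcl1 (chr5:90890995-90891240, plus strand): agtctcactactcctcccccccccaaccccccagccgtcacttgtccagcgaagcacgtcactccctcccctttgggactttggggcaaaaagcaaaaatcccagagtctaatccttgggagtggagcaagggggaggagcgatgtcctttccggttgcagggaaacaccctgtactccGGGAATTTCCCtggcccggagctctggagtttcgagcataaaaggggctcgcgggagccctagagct
Cxcl12 (chr6:117168285-117168534, plus strand): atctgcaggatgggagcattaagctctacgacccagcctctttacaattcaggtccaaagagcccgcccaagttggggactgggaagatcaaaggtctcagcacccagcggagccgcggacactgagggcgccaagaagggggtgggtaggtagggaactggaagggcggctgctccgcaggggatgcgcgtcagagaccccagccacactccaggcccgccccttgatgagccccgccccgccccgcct
Cx3cl1 (chr8:94771930-94772008, plus strand): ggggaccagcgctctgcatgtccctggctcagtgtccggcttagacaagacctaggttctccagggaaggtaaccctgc
Besides the kB motif, the core of the interferon-stimulated response element (GAAANNGAAA), the GAS element (TTCNNNGAA) and TATAAA were searched on both strands. Of 32851 RefSeq windows of the same length, 8.46% held the kB motif, 3.44% the response element core, 8.3% the GAS element and 13.6% TATAAA. The Cxcl12 window held none of the 4, and the Cx3cl1 window held only TATAAA, 6 to 1 bases before the RefSeq start and downstream of the printed bases. A match describes letters only and shows no binding.

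The endothelial identity of the libraries was measured with markers. Pecam1 was at 138 to 386 FPKM and Cdh5, VE-cadherin, at 265 to 782 FPKM, and 10 of 10 endothelial markers were in the table. Markers of other cells were present in every library, with Epcam at 54.2 to 215 FPKM, Pdgfrb of mural cells at 20.2 to 101, Col1a1 of fibroblasts at 19.5 to 456, Csf1r of myeloid cells at 1.26 to 20.1, Ptprc (CD45) at 0.156 to 9.73 and Cd3e of T cells at 0.0193 to 7.64. Under PBS the summed epithelial markers were at 838 to 905 FPKM in MMTV-PyMT, 313 to 395 in normal and 345 to 494 in implanted ECs. The epithelial sum was above the endothelial sum in MMTV-PyMT PBS 2 (905 against 828) and MMTV-PyMT PBS 3 (885 against 771). The part of epithelial RNA in comparisons with MMTV-PyMT ECs was not tested. Of the 3 adipocyte markers, 0 were in the table. Summed leukocyte markers stood apart in 3 libraries: myeloid markers (9 of 10 in the table) were at 382 FPKM in implanted cGAMP 2 against 69 to 161 in the other 17 libraries, and lymphoid markers (5 of 8 in the table) were at 49.2 in implanted cGAMP 2, 29.6 in normal cGAMP 1 and 19.8 in normal PBS 3. Depth ranged from 9178021 to 12187346 recovered reads per library.

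The first question of the design was how ECs of each tissue responded to cGAMP. The CC chemokines Ccl2, Ccl5 and Ccl7 rose in all 3 tissues, by 5.82-fold to 56.4-fold on the FPKM + 1 scale, and Cx3cl1 rose by 2.22-fold to 4.9-fold. On that scale Cxcl16 rose at least 2-fold in implanted ECs and Cxcl1 in MMTV-PyMT ECs. Cxcl12, the most abundant of the 7 under PBS, passed the test in no tissue in the main fit. A gene was called when its limma test on log2(FPKM + 1) gave an adjusted p under 0.05 with at least a 2-fold change. Of the 7 chemokines, 4 were called higher in normal ECs (background 3.02% of 13983 tested genes), 5 in MMTV-PyMT ECs (2.49%) and 5 in the ECs of implanted tumours (6.13%), and 0 were called lower. Without the fold limit 5, 6 and 5 passed higher, against 13.7%, 7.42% and 20.3% of tested genes. All cGAMP libraries lay above all PBS libraries for 6 of the 7 in normal ECs (20.9% of tested genes), for 6 in MMTV-PyMT ECs (14.8%) and for 5 in implanted ECs (22.4%). Their median log2 change was 1.46 in normal ECs (-0.045 over all tested genes), 1.34 in MMTV-PyMT ECs (-0.037 over all) and 2.29 in implanted ECs (-0.014 over all).

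**Figure D1:**
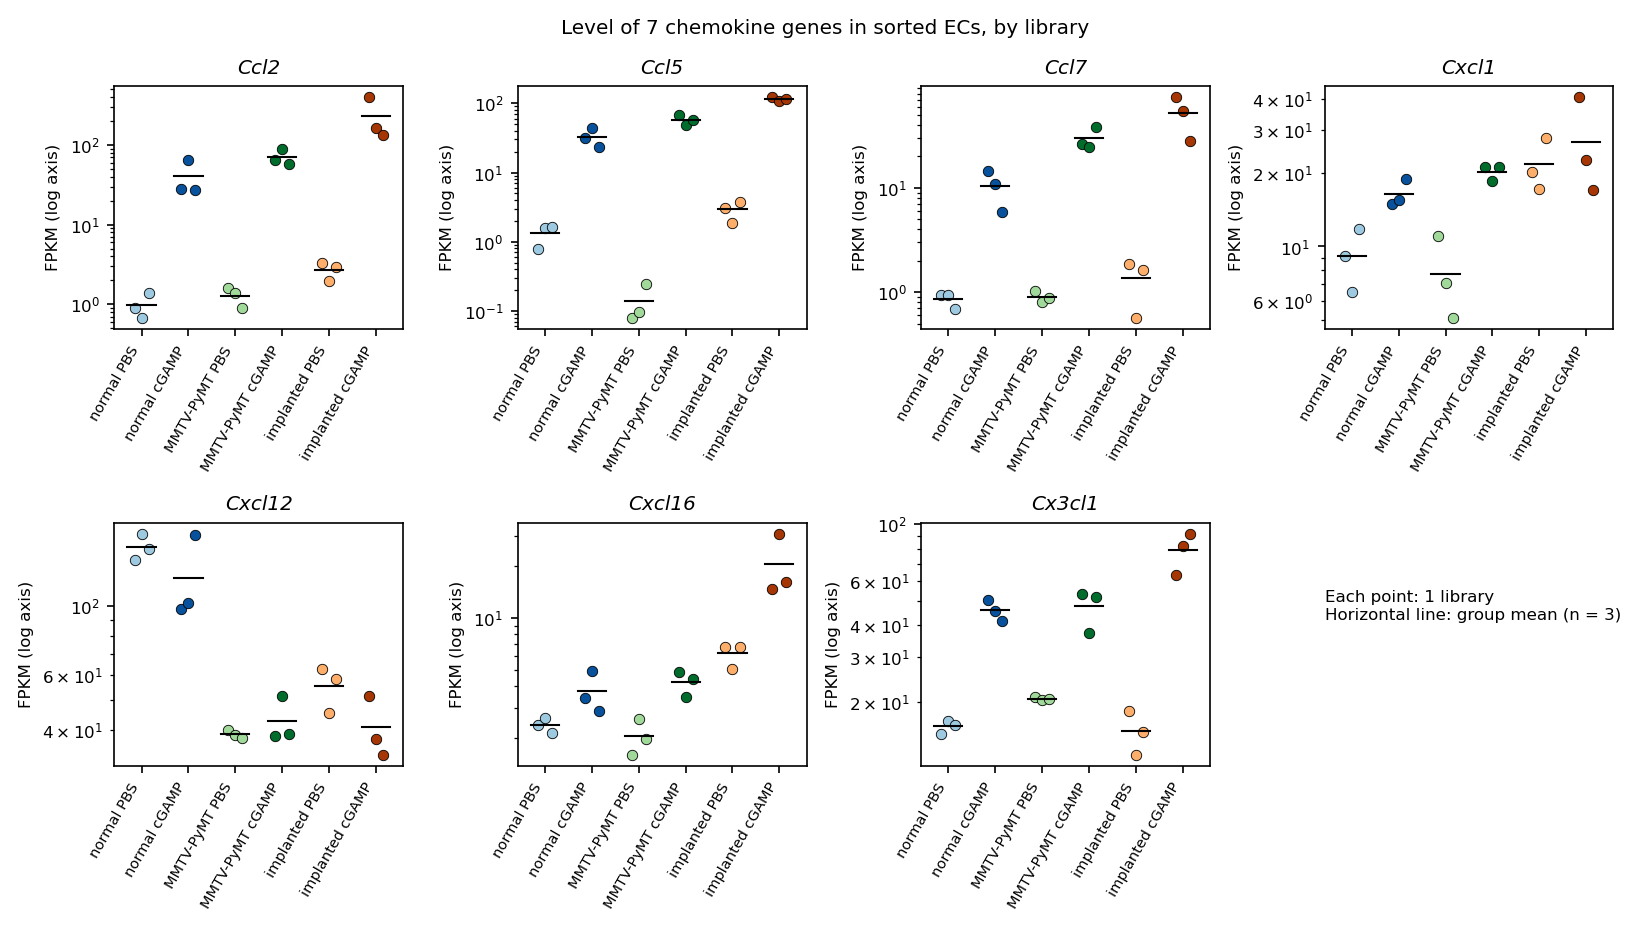
Level of each chemokine in FPKM on a log axis (one panel per gene) for the 6 groups, with a point for each of 3 libraries and a line at the mean. Ccl2, Ccl5 and Ccl7 moved from group means of 0.14 to 2.93 FPKM under PBS to 10.4 to 233 FPKM after cGAMP, while Cxcl12 stayed between 33.4 and 170 FPKM in all libraries.

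Ccl2, also known as MCP-1, recruits monocytes through the receptor CCR2. In normal ECs Ccl2 was at 0.893, 0.667 and 1.38 FPKM under PBS and at 28.2, 65.8 and 27.2 FPKM after cGAMP. In MMTV-PyMT ECs Ccl2 was at 1.59, 1.38 and 0.899 FPKM under PBS and at 64.2, 90.1 and 57.2 after cGAMP. In implanted ECs Ccl2 was at 3.29, 1.98 and 2.93 FPKM under PBS and at 401, 166 and 134 after cGAMP. Groups did not overlap in any tissue, and implanted cGAMP 1 was the highest library. The log2 change was 4.28 ± 0.36 (SE, 19.4-fold, adjusted p = 3.91e-07) in normal ECs, 4.95 ± 0.36 (30.9-fold, adjusted p = 5.26e-08) in MMTV-PyMT ECs and 5.82 ± 0.36 (56.4-fold, adjusted p = 4.1e-09) in implanted ECs. Because 1 FPKM was added before the logarithm, these understate the change of a gene near 1 FPKM, and the plain ratios of mean FPKM were 41.2, 54.7 and 85.3, the last being 54.7 without implanted cGAMP 1. The PBS values of Ccl2 rested on 9 to 35 reads per library.

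Ccl7, or MCP-3, is the cluster neighbour of Ccl2 and also binds CCR2. Its normal ECs held 0.952, 0.947 and 0.691 FPKM under PBS and 14.4, 11 and 5.86 FPKM after cGAMP. In MMTV-PyMT ECs Ccl7 was at 1.03, 0.806 and 0.884 FPKM under PBS and at 26.4, 24.5 and 38.5 after cGAMP. In implanted ECs Ccl7 was at 1.87, 0.564 and 1.64 FPKM under PBS and at 74.1, 54.9 and 27.9 after cGAMP. All cGAMP libraries again lay above all PBS libraries of their tissue. Ccl7 rose by a log2 of 2.54 ± 0.33 (SE, adjusted p = 3.32e-05) in the normal fat pad, by 3.99 ± 0.33 (adjusted p = 2.18e-07) in the transgenic tumours and by 4.44 ± 0.33 (adjusted p = 2.47e-08) in the implanted ones. The ratio of mean FPKM was 12.1, 32.8 and 38.5, on 4 to 14 reads per PBS library.

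The FPKM ratio of Ccl2 to Ccl7 within a library varied between groups. Its median was 0.938 under PBS and 4.64 after cGAMP in normal ECs, 1.79 and 4.79 in implanted ECs, and 1.54 and 2.43 in MMTV-PyMT ECs. The ranges overlapped in each tissue, being 0.704 to 1.99 and 1.96 to 5.99 in normal ECs, 1.02 to 1.71 and 1.49 to 3.68 in MMTV-PyMT ECs, and 1.76 to 3.52 and 3.02 to 5.41 in implanted ECs. This is a description without a test.

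Ccl5, or RANTES, attracts T cells, NK cells and monocytes, and is made by T cells as well as by stimulated ECs. In normal ECs Ccl5 was at 0.794, 1.58 and 1.63 FPKM under PBS and at 32, 43.3 and 23.2 FPKM after cGAMP. In MMTV-PyMT ECs Ccl5 was at 0.0785, 0.0961 and 0.246 FPKM under PBS, which is 1, 1 and 3 reads, and at 68.5, 48.3 and 56.5 FPKM after cGAMP. In implanted ECs Ccl5 was at 3.12, 1.88 and 3.79 FPKM under PBS and at 123, 107 and 115 after cGAMP. The 6 group means were ordered with no overlap between neighbours: 115 ± 8.11 FPKM (SD, n = 3) in implanted ECs after cGAMP, 57.8 ± 10.2 in MMTV-PyMT and 32.8 ± 10.1 in normal ECs after cGAMP, then 2.93 ± 0.97, 1.34 ± 0.47 and 0.14 ± 0.092 in implanted, normal and MMTV-PyMT ECs under PBS. The log2 rise of Ccl5 was 5.68 ± 0.22 (SE, adjusted p = 1.58e-11) in MMTV-PyMT ECs, 4.91 ± 0.22 (adjusted p = 9.67e-11) in implanted ECs and 3.83 ± 0.22 (adjusted p = 4.24e-09) in normal ECs. With so few reads under PBS the size in MMTV-PyMT ECs depended on the scale: it was 7.96 with a pseudocount of 0.1 and 8.40 in a voom fit on the recovered reads. Over the 3 libraries of each group, 1688 reads after cGAMP stood against 5 under PBS, a ratio of rates of 411 with a 95% counting interval from 176 to 1266. The ratio of mean FPKM was 412, and 662 without MMTV-PyMT PBS 3.

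Lymphoid markers were given beside Ccl5 because lymphocytes also make it. Their sum was 0.726 to 1.17 FPKM under PBS and 1.08 to 1.55 after cGAMP in MMTV-PyMT ECs, where Ccl5 was at 48.3 to 68.5 FPKM after cGAMP. In normal ECs the sum was 6.87 to 19.8 under PBS and 4.8 to 29.6 after cGAMP, and in implanted ECs 2.55 to 4.69 and 7.82 to 49.2. Leaving out the 3 libraries with raised leukocyte markers, the counts of called chemokines after cGAMP were again 4, 5 and 5.

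Cxcl1, or KC, attracts neutrophils through CXCR2 and carried the kB motif shown above. In normal ECs Cxcl1 was at 9.12, 6.48 and 11.8 FPKM under PBS and at 14.9, 15.5 and 18.9 FPKM after cGAMP. In MMTV-PyMT ECs Cxcl1 was at 11, 7.09 and 5.08 FPKM under PBS and at 21.1, 18.6 and 21.1 after cGAMP. In implanted ECs Cxcl1 was at 20.2, 17.2 and 27.8 FPKM under PBS and at 40.9, 22.7 and 17 after cGAMP. Groups were separate in normal and MMTV-PyMT ECs and overlapped in implanted ECs, where the PBS libraries were already at the level of MMTV-PyMT ECs after cGAMP. Cxcl1 rose by a log2 of 1.34 ± 0.29 (SE, adjusted p = 0.00579) in MMTV-PyMT ECs and by 0.81 ± 0.29 (adjusted p = 0.0395), under 2-fold, in normal ECs. In implanted ECs the difference was 0.23 ± 0.29 (95% interval -0.38 to 0.83, adjusted p = 0.555), and it was -0.11 without implanted cGAMP 1.

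Cxcl12, or SDF-1, signals through CXCR4, retains leukocytes and progenitors, and is bound and removed by ACKR3. In normal ECs Cxcl12 was at 140, 170 and 152 FPKM under PBS and at 97.8, 102 and 168 FPKM after cGAMP. In MMTV-PyMT ECs Cxcl12 was at 40.2, 38.7 and 37.9 FPKM under PBS and at 38.3, 51.4 and 38.9 after cGAMP. In implanted ECs Cxcl12 was at 62.9, 45.5 and 58.3 FPKM under PBS and at 51.5, 37.6 and 33.4 after cGAMP. The PBS and cGAMP libraries overlapped in all 3 tissues. The log2 difference was -0.37 (95% interval -0.78 to 0.05, adjusted p = 0.166) in normal ECs, 0.12 (-0.29 to 0.54, adjusted p = 0.736) in MMTV-PyMT ECs and -0.45 (-0.86 to -0.03, adjusted p = 0.0815) in implanted ECs. In the main fit a 2-fold rise or fall lay outside each of these intervals. The size of the fall depended on the setting. Over 28 alternative settings the limma value ran from -0.78 to -0.32 in implanted ECs, with a lowest adjusted p of 0.0036. In normal ECs it ran from -0.61 to -0.23, with a lowest adjusted p of 0.0166. Cxcl12 was called in none of these settings, and intervals under them are not given here.

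Cxcl16 and Cx3cl1 are made as membrane proteins that tether cells bearing CXCR6 and CX3CR1, and both can be released by the proteases ADAM10 and ADAM17. In normal ECs Cxcl16 was at 2.38, 2.62 and 2.14 FPKM under PBS and at 3.41, 4.91 and 2.89 FPKM after cGAMP. In MMTV-PyMT ECs Cxcl16 was at 1.6, 2.57 and 1.98 FPKM under PBS and at 4.83, 3.47 and 4.39 after cGAMP. In implanted ECs Cxcl16 was at 6.8, 5.05 and 6.8 FPKM under PBS and at 14.7, 30.8 and 16.1 after cGAMP. No tissue had overlapping groups, but the steps were small outside implanted ECs. Cxcl16 rose by a log2 of 1.51 ± 0.22 (SE, 2.85-fold, adjusted p = 5.9e-05) in implanted ECs and by 0.78 ± 0.22 (adjusted p = 0.0316), under 2-fold, in MMTV-PyMT ECs. The size in MMTV-PyMT ECs depended on the added 1 FPKM. There the plain ratio of mean FPKM was 2.07, and with a pseudocount of 0.1 the change was 1.02 and called (adjusted p = 0.0167). In normal ECs the difference was 0.47 (95% interval -0.01 to 0.94, adjusted p = 0.125). The highest Cxcl16 library, implanted cGAMP 2, was also the highest in summed myeloid markers and in Zmynd15, and without it the change in implanted ECs was 1.19 and still called.

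Cx3cl1, or fractalkine, had the smallest standard error of the 7 genes in these comparisons. In normal ECs Cx3cl1 was at 15, 16.8 and 16.3 FPKM under PBS and at 50.1, 45.4 and 41.8 FPKM after cGAMP. In MMTV-PyMT ECs Cx3cl1 was at 21, 20.3 and 20.5 FPKM under PBS and at 53.3, 37.3 and 51.9 after cGAMP. In implanted ECs Cx3cl1 was at 18.4, 12.4 and 15.3 FPKM under PBS and at 63.2, 82.2 and 91.8 after cGAMP. The lowest cGAMP library of any tissue, at 37.3 FPKM, was above the highest PBS library, at 21 FPKM. The log2 rise of Cx3cl1 was 2.29 ± 0.15 (SE, 4.9-fold, adjusted p = 9.15e-09) in implanted ECs, 1.46 ± 0.15 (2.74-fold, adjusted p = 4.46e-06) in normal ECs and 1.15 ± 0.15 (2.22-fold, adjusted p = 6.64e-05) in MMTV-PyMT ECs.

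**Figure D2:**
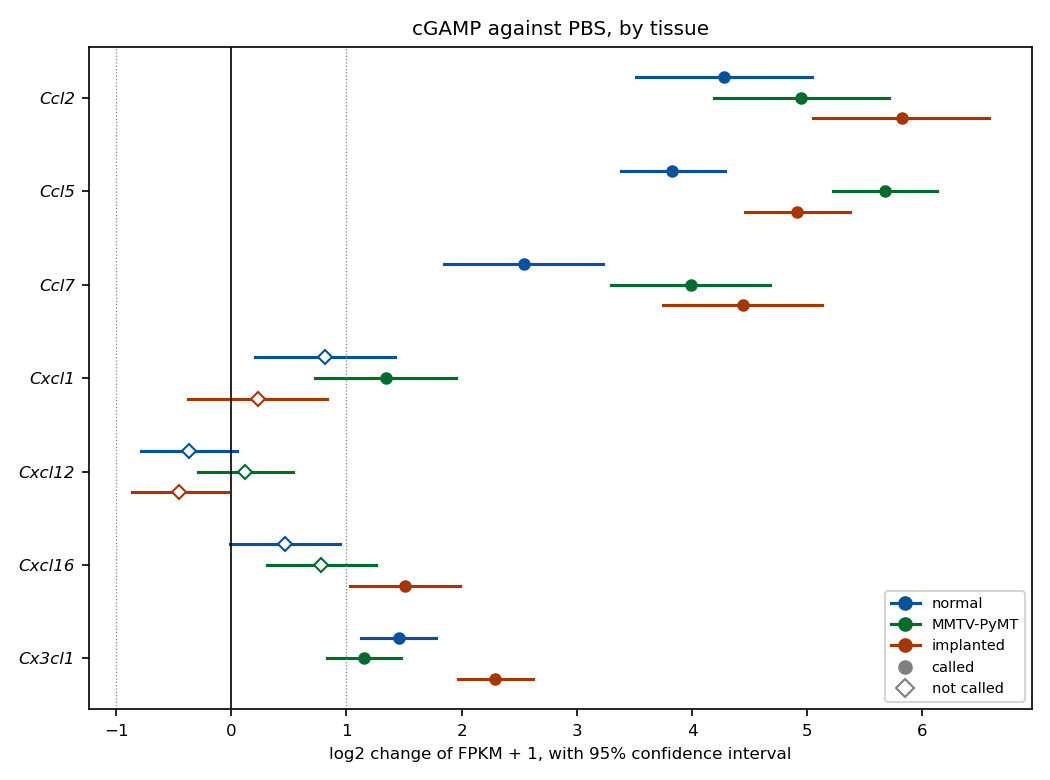
Change in log2(FPKM + 1) from PBS to cGAMP for each chemokine, by tissue, with 95% intervals from limma. Filled circles are called and open diamonds are not. Ccl2, Ccl5, Ccl7 and Cx3cl1 are filled in all 3 tissues and the Cxcl12 values lie between -0.45 and 0.12.

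The make-up of the chemokine mRNA differed between PBS and cGAMP libraries. The FPKM of the 7 genes summed to 185 ± 15.2 (SD, n = 3) under PBS and 272 ± 27.2 after cGAMP in normal ECs, to 71.6 ± 4.56 and 273 ± 4.09 in MMTV-PyMT ECs, and to 106 ± 18.5 and 568 ± 177 in implanted ECs. Cxcl12 held the largest share under PBS, with a mean of 83.3% in normal ECs, 54.4% in MMTV-PyMT tumours and 52.6% in implanted ones, and 44.8%, 15.7% and 7.3% after cGAMP. Ccl2 held 0.535%, 1.78% and 2.56% of the sum under PBS and 14.7%, 25.8% and 38.7% after cGAMP in the same order of tissues. Ccl5 held at most 2.72% on average under PBS and 12.1%, 21.1% and 21.3% after cGAMP. After cGAMP, Cxcl12 had the largest mean share in normal ECs and Ccl2 in both kinds of tumour EC. These shares are means over 3 libraries of FPKM values per length and carry no test.

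**Figure D3:**
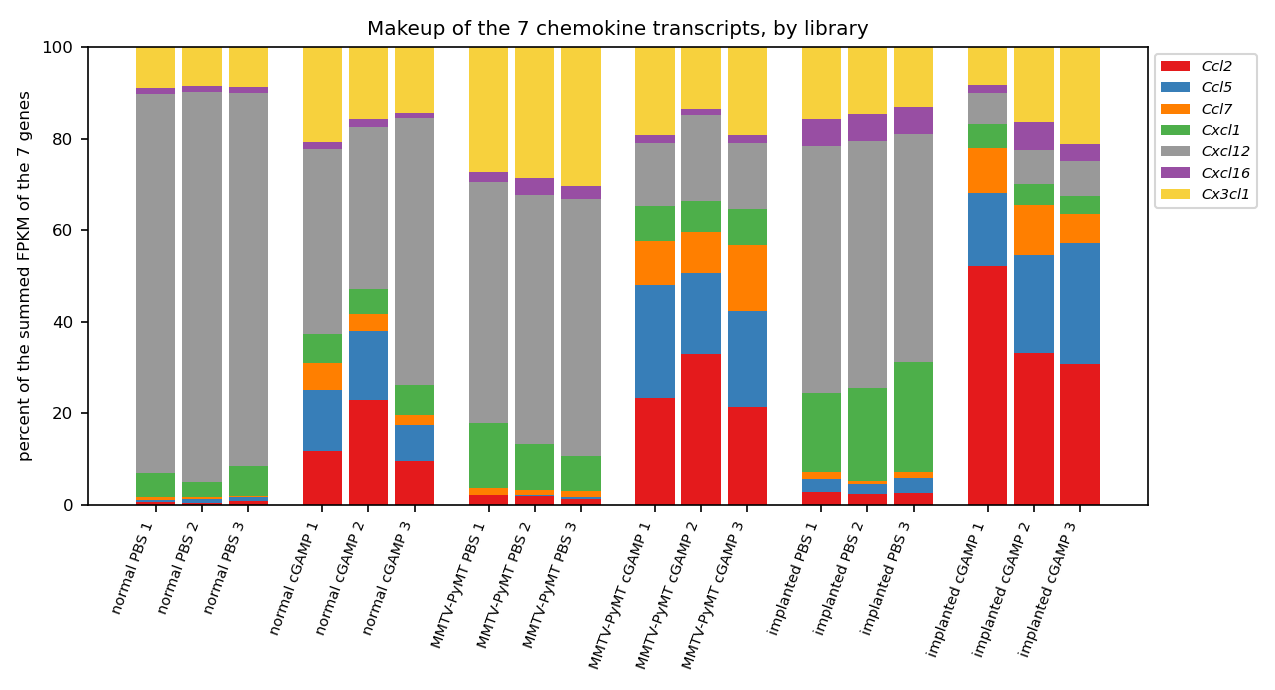
Percent of the summed FPKM of the 7 chemokines taken by each gene, one stacked bar per library, in the 6 groups. Cxcl12 takes 81.7% to 85.4% of the bar in normal ECs under PBS and 6.7% to 7.69% in implanted ECs after cGAMP, where Ccl2 takes 30.7% to 52.1%.

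The second question was whether the response to cGAMP differed between tissues, which the same limma fit tested as a difference of log2 changes. The implanted response exceeded the normal one for 4 of the 7 chemokines (background 3.75% of tested genes), the MMTV-PyMT response exceeded the normal one for 1 (1.28%) and the implanted response exceeded the MMTV-PyMT one for 1 (1.85%). These comparisons share libraries, so they are not independent. Ccl7 rose by 1.90 ± 0.46 more in implanted than in normal ECs on the log2 scale (SE, adjusted p = 0.00878) and Ccl5 by 1.84 ± 0.30 more in MMTV-PyMT than in normal ECs (adjusted p = 0.00287). Cx3cl1 rose by 1.14 ± 0.22 more in implanted than in MMTV-PyMT ECs (adjusted p = 0.00284), and its excess over normal ECs, 0.84 ± 0.22 (adjusted p = 0.0129), passed the test under the 2-fold limit. Without MMTV-PyMT cGAMP 2, the lowest Cx3cl1 library of its group, the excess over MMTV-PyMT ECs was 0.98, also under 2-fold, as it was when scaled by total reads (0.96, adjusted p = 0.0171) or quantiles (0.76, adjusted p = 0.042).

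The remaining calls between implanted and normal ECs were close to the threshold. They were Ccl2 (1.54 ± 0.51, SE, adjusted p = 0.0458), Ccl5 (1.08 ± 0.30, adjusted p = 0.0205) and Cxcl16 (1.04 ± 0.32, adjusted p = 0.0303). With replicate number as a block the Ccl2 difference had an adjusted p of 0.0541. Ccl2 lost its call in 22 of 28 alternative settings, Cxcl16 in 11 and Ccl5 in 9, and Ccl7 only in the voom fit on reads (adjusted p = 0.304). For Cxcl16 these included leaving out implanted cGAMP 2, the library highest in myeloid markers (0.72, adjusted p = 0.0464, under 2-fold). They also included leaving out the 3 libraries with raised leukocyte markers (0.74, adjusted p = 0.0963). The count of 4 was 1 without normal PBS 2, without normal cGAMP 3 or without implanted PBS 2, and 2 without normal PBS 1, normal PBS 3 or normal cGAMP 1.

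The remaining differences did not pass the test, but those of Ccl5 and Cxcl1 between the tumour types depended on the processing. From MMTV-PyMT to implanted ECs the Ccl2 response differed by 0.87 (95% interval -0.21 to 1.95, adjusted p = 0.322) and the Ccl7 response by 0.45 (-0.52 to 1.43, adjusted p = 0.6). The Ccl5 response was smaller in implanted than in MMTV-PyMT ECs by 0.76 in log2 (difference -0.76, interval -1.41 to -0.12, adjusted p = 0.126), and the difference was called in 4 alternatives: -1.06 (adjusted p = 0.0314) scaled by total reads, -1.15 (adjusted p = 0.0236) with quantile normalization, -2.66 (adjusted p = 0.00126) with a pseudocount of 0.1 and -3.09 (adjusted p = 0.0227) with voom. Cxcl1 differed by -1.11 (-1.97 to -0.25, adjusted p = 0.0931) between the same tissues. It was called at -1.29 (adjusted p = 0.0385) by total reads, -1.37 (adjusted p = 0.0266) by quantiles, -1.45 (adjusted p = 0.0163) without implanted cGAMP 1 and -1.37 (adjusted p = 0.0411) without MMTV-PyMT PBS 1. For MMTV-PyMT minus normal ECs the Ccl7 difference was 1.45 (0.47 to 2.42, adjusted p = 0.0638), and it passed the test without normal cGAMP 1 (1.70, adjusted p = 0.0371), implanted cGAMP 1 (adjusted p = 0.039) or implanted cGAMP 3 (adjusted p = 0.0306). The Cxcl12 responses differed by -0.57 to 0.49 between tissues with no difference passing the test.

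**Figure D4:**
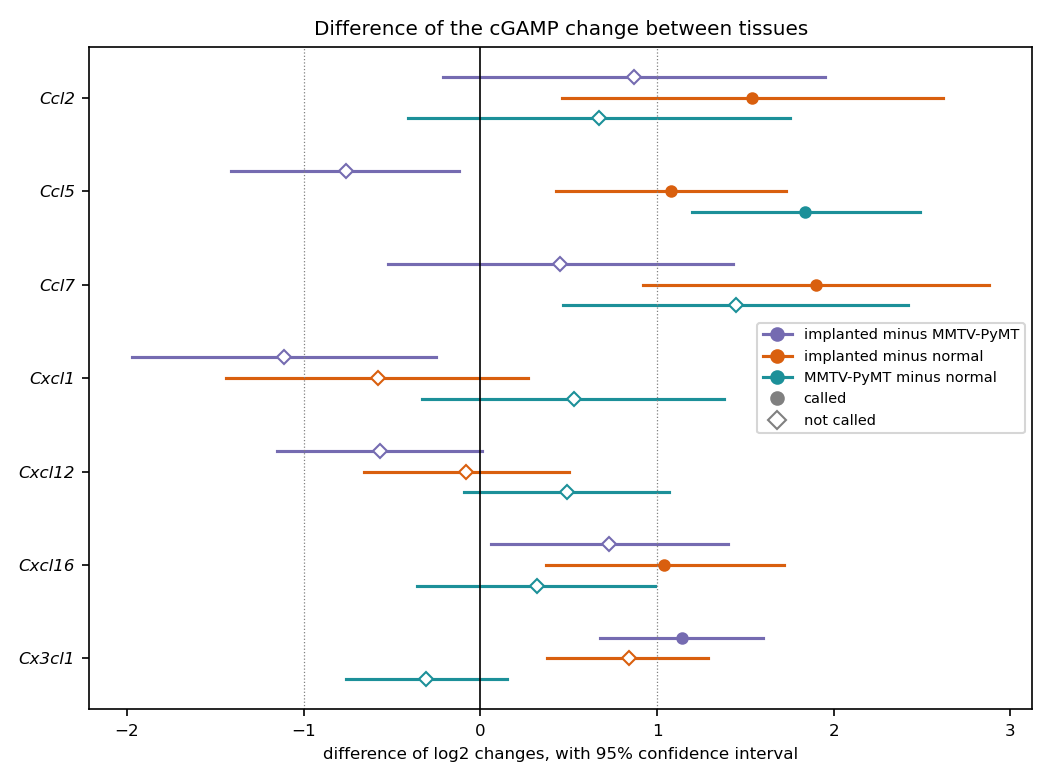
Difference between tissues in the log2 change from PBS to cGAMP for each chemokine, with 95% intervals from limma, for implanted minus MMTV-PyMT, implanted minus normal and MMTV-PyMT minus normal ECs. Ccl7 reaches 1.90 for implanted minus normal and Cx3cl1 1.14 for implanted minus MMTV-PyMT ECs.

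The third question was the level in each tissue before the agonist. Under PBS, 3 of the 7 chemokines were called between implanted and MMTV-PyMT ECs (background 7.33% of tested genes, either way), 3 between implanted and normal ECs (11.5%) and 2 between MMTV-PyMT and normal ECs (13.9%). Cxcl1 was higher in implanted ECs than in MMTV-PyMT ECs by a log2 of 1.41 ± 0.29 (SE, adjusted p = 0.000902) and than in normal ECs by 1.17 ± 0.29 (adjusted p = 0.00291). Against normal ECs it was 0.97 without normal PBS 2 and 0.99 without implanted PBS 3, both under 2-fold. Cxcl16 was higher in implanted ECs by 1.25 ± 0.22 (adjusted p = 0.00035) than in MMTV-PyMT and 1.09 ± 0.22 (adjusted p = 0.000806) than in normal ECs, the second being 0.95 when scaled by total reads. Ccl5 was higher in implanted than in MMTV-PyMT ECs by 1.76 ± 0.22 (adjusted p = 1.13e-05) and lower in MMTV-PyMT than in normal ECs (log2 -1.02 ± 0.22, adjusted p = 0.00084). Both Ccl5 and the lymphoid marker sum were lowest in MMTV-PyMT ECs, whereas Ccl5 was highest in implanted ECs and the lymphoid sum in normal ECs. The part of lymphocytes in these differences was not tested. Without normal PBS 3, the PBS library with the highest lymphoid sum, the Ccl5 difference between MMTV-PyMT and normal ECs was -0.92 (adjusted p = 0.00559), under 2-fold. It was also under 2-fold, at -0.93 to -0.99, without normal PBS 2, MMTV-PyMT PBS 1 or MMTV-PyMT PBS 2.

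Cxcl12 was lower in both kinds of tumour EC than in normal ECs. The mean was 154 ± 15.3 FPKM (SD, n = 3) in normal, 55.6 ± 9.01 in implanted and 38.9 ± 1.19 in MMTV-PyMT ECs under PBS. The log2 difference from normal ECs was -1.95 ± 0.19 (SE, adjusted p = 6.41e-07) in MMTV-PyMT and -1.46 ± 0.19 (adjusted p = 1.44e-05) in implanted ECs. Summed mural cell markers (5 of 5 in the table) moved the same way, at 738 to 1020 FPKM in the 6 normal libraries and 166 to 426 in the 12 tumour libraries. Whether mural RNA took part in the Cxcl12 difference was not tested. The sum of fibroblast markers was 47.3 to 89.2 FPKM in normal, 110 to 174 in MMTV-PyMT and 234 to 602 in implanted libraries. Col1a1 alone reached 456 FPKM, and the 5 markers did not move together. Under PBS 2 of them were called higher and 2 lower in implanted than in normal ECs (median log2 0.03, background 11.5% of tested genes, either way). In MMTV-PyMT against normal ECs 1 was called higher and 0 lower (median log2 0.56, background 13.9%, either way).

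**Figure D5:**
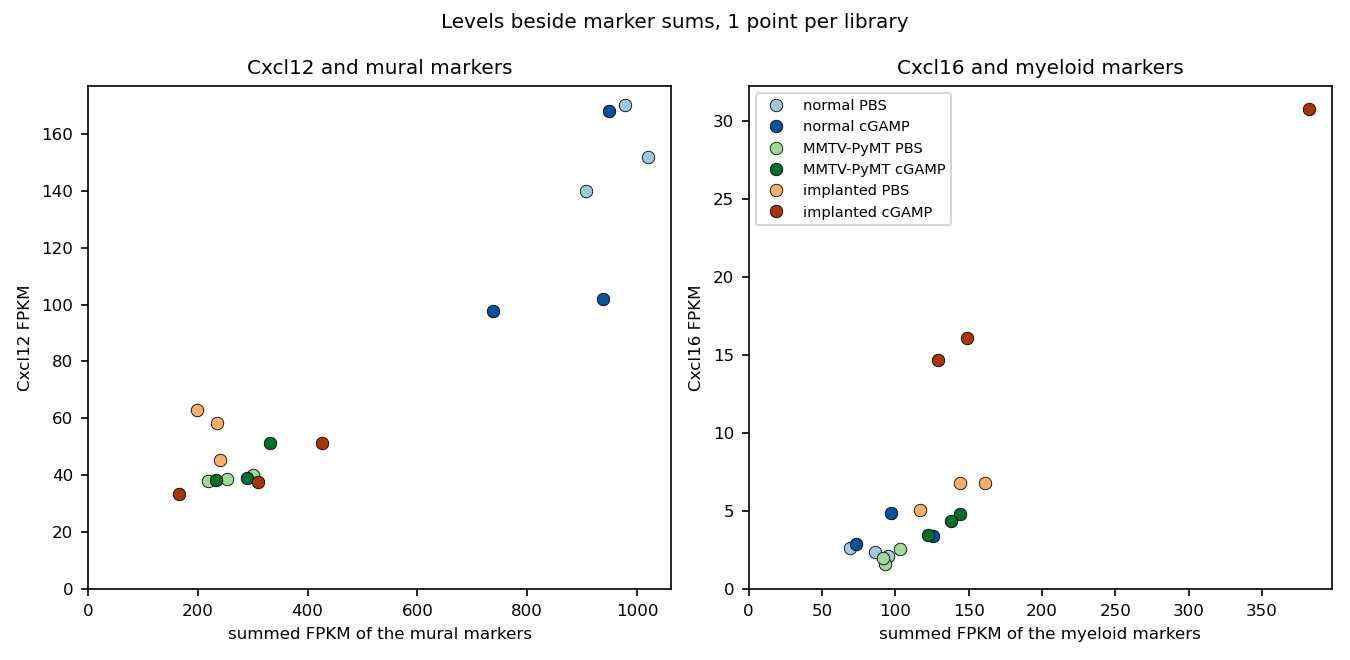
Left, Cxcl12 against summed mural markers, and right, Cxcl16 against summed myeloid markers, in FPKM on linear axes with 1 point per library. Normal libraries lie at 738 to 1020 FPKM of mural markers with 97.8 to 170 FPKM of Cxcl12, and implanted cGAMP 2 lies at 382 FPKM of myeloid markers with 30.8 FPKM of Cxcl16.

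Cx3cl1, Ccl2 and Ccl7 were not called between tissues under PBS. Cx3cl1 was at 20.6 ± 0.35 FPKM (SD, n = 3) in MMTV-PyMT, 16 ± 0.944 in normal and 15.4 ± 3 in implanted ECs, and the step of -0.42 ± 0.15 in log2 (SE, adjusted p = 0.0351) from MMTV-PyMT to implanted ECs passed the test under 2-fold. Ccl2 was at 2.74 ± 0.676 FPKM in implanted ECs, 0.92 ± 0.36 in log2 above normal ECs (adjusted p = 0.0456), and at 1.29 ± 0.353 in MMTV-PyMT and 0.979 ± 0.364 in normal ECs, which overlapped. The Ccl2 difference depended on the added 1 FPKM: with a pseudocount of 0.1 it was called for implanted against normal (1.42, adjusted p = 0.00815) and against MMTV-PyMT ECs (1.03, adjusted p = 0.0451). Against normal ECs it was also called without normal PBS 3 (1.06, adjusted p = 0.0496) or implanted PBS 2 (1.07, adjusted p = 0.0445). Ccl7 was at 1.36 ± 0.698, 0.908 ± 0.116 and 0.863 ± 0.149 FPKM in implanted, MMTV-PyMT and normal ECs, all overlapping.

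Across all 18 libraries the span of levels was widest for Ccl5 and narrowest for Cxcl12. The highest library exceeded the lowest by 1573-fold for Ccl5, 601-fold for Ccl2, 131-fold for Ccl7, 19.3-fold for Cxcl16, 8.05-fold for Cxcl1, 7.43-fold for Cx3cl1 and 5.08-fold for Cxcl12. Implanted ECs after cGAMP had the highest group mean for 6 of the 7 genes, Cxcl12 being highest in normal ECs under PBS. For Ccl2 the means were 233 ± 146 FPKM (SD, n = 3) in implanted, 70.5 ± 17.3 in MMTV-PyMT and 40.4 ± 22 in normal ECs after cGAMP, and the MMTV-PyMT and normal libraries overlapped. For Ccl7 they were 52.3 ± 23.2, 29.8 ± 7.64 and 10.4 ± 4.29, with overlap between implanted and MMTV-PyMT libraries. For Cxcl1 neighbours overlapped from 26.9 ± 12.5 in implanted ECs after cGAMP through 21.7 ± 5.5 in implanted ECs under PBS and 20.3 ± 1.48 in MMTV-PyMT ECs after cGAMP to 16.5 ± 2.15 in normal ECs after cGAMP, and the lowest means, 9.14 ± 2.67 in normal and 7.72 ± 3.02 in MMTV-PyMT ECs under PBS, overlapped each other. For Cxcl12 the normal means of 154 under PBS and 123 ± 39.5 after cGAMP overlapped each other and no tumour group, and the tumour groups overlapped from 55.6 through 42.9 ± 7.36 and 40.8 ± 9.47 to 38.9.

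Among the membrane-bound chemokines, Cxcl16 followed the same order of group means as Cxcl1, and the 3 highest groups of Cx3cl1 were those of the CC chemokines. Cxcl16 was at 20.5 ± 8.92 FPKM (SD, n = 3) in implanted ECs after cGAMP and 6.22 ± 1.01 under PBS, with all 3 PBS libraries above every library of MMTV-PyMT and normal ECs, whose cGAMP means of 4.23 ± 0.69 and 3.74 ± 1.05 overlapped. Cx3cl1 was at 79.1 ± 14.6 FPKM in implanted ECs after cGAMP, above 47.5 ± 8.84 in MMTV-PyMT and 45.8 ± 4.16 in normal ECs, which overlapped. All 3 of these means were above the 3 PBS means of Cx3cl1.

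Other chemokines were counted from a list of 31 symbols, of which 13 were in the table and 11 were tested. Of these, cGAMP raised 3 in normal ECs and 5 in either kind of tumour EC to a call, and 0 were called lower. Of all tested genes, 3.02%, 2.49% and 6.13% were called higher in normal, MMTV-PyMT and implanted ECs. The median log2 changes of the 11 were 0.23, 0.51 and 1.15. The interferon-inducible CXCR3 ligands Cxcl9, Cxcl10 and Cxcl11 were called in all 3 tissues, with log2 changes of 3.62, 5.30 and 2.66 for Cxcl9 and 4.38, 5.13 and 5.09 for Cxcl11 in the same order. Cxcl10 went from a mean of 1.07 to 426 FPKM in normal ECs, from 0.825 to 385 in MMTV-PyMT ECs and from 18.5 to 1309 in implanted ECs. Ccl2 was thus below Cxcl10 after cGAMP in every tissue by mean FPKM. Of the cluster neighbours, Ccl11, an eosinophil attractant 20369 bases from Ccl2, rose by a log2 of 1.35 ± 0.30 (SE, adjusted p = 0.00793) in MMTV-PyMT and 2.56 ± 0.30 (adjusted p = 5.27e-06) in implanted ECs. Cxcl2, the neighbour of Cxcl1 and also a CXCR2 ligand, rose by 1.07 ± 0.25 (adjusted p = 0.00938) in MMTV-PyMT ECs, where Cxcl1 was called as well, and by 0.81 ± 0.25 (adjusted p = 0.0158) in implanted ECs, where Cxcl1 did not pass the test. Ccl8 near Ccl2, with log2 values of -0.14 to 1.36, and Ccl6 and Ccl9 near Ccl5, at -0.64 to 0.88 and -0.32 to 0.40, passed the test in no tissue. Ppbp, a platelet chemokine gene of the Cxcl1 cluster, rose by 1.15 ± 0.29 (adjusted p = 0.0055) in implanted ECs.

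Receptors and scavengers of chemokines were counted from a list of 23 symbols, with 15 in the table and 11 tested. After cGAMP, 1 was called higher in normal ECs and 2 in either kind of tumour EC, and 0 were called lower. The background was 3.02%, 2.49% and 6.13% of tested genes in normal, MMTV-PyMT and implanted ECs. Median log2 changes of the 11 were 0.07, 0.12 and 0.17. Ccrl2, a non-signalling receptor that presents chemerin, rose by a log2 of 2.26, 3.01 and 4.56 (SE 0.17 each, adjusted p = 1.49e-07, 3.05e-09 and 2.17e-11). Ackr1, the venular receptor that binds Ccl2, Ccl5, Ccl7 and Cxcl1 without signalling, rose by 1.51 ± 0.24 (adjusted p = 0.000398) in MMTV-PyMT and 1.77 ± 0.24 (adjusted p = 2.18e-05) in implanted ECs. The Cxcl12 receptor Cxcr4 did not pass the test after cGAMP, with log2 values of -0.48, -0.28 and 0.17, and its PBS mean was 155 ± 11.1 FPKM (SD, n = 3) in implanted, 27.9 ± 0.461 in MMTV-PyMT and 24.3 ± 5 in normal ECs. Cxcr4 and Ackr3, the other Cxcl12 receptor, were named for Cxcl12 after their values were seen. Ackr3 was lower in MMTV-PyMT than in normal ECs under PBS (log2 -1.07 ± 0.18, SE, adjusted p = 0.000112), and its implanted value against normal ECs was -0.39 (adjusted p = 0.0825), which did not pass the test.

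Of 5 proteases that cut chemokines, all 5 were tested and 0 were called after cGAMP in any tissue. Of all tested genes, 3.02%, 2.49% and 6.13% were called higher in normal, MMTV-PyMT and implanted ECs. Without the fold limit all 5 passed higher in implanted ECs, against 20.3% of tested genes. Adam10 and Adam17, which shed Cxcl16 and Cx3cl1, rose by a log2 of 0.37 ± 0.09 (SE, adjusted p = 0.00521) and 0.39 ± 0.08 (adjusted p = 0.00181) in implanted ECs, each under 2-fold. In normal ECs Adam17 fell by 0.44 ± 0.08 (adjusted p = 0.00106), and Adam10 was at -0.15 (adjusted p = 0.223). In implanted ECs Dpp4, which clips Cxcl12, and the matrix metalloproteinases Mmp2 and Mmp14 also rose under 2-fold, by 0.64, 0.86 and 0.55. Of the 5 fibroblast markers, 4 passed higher in the same comparison (20.3% of all tested genes) with 0 called (median log2 0.74). Their sum was 234 to 269 FPKM under PBS and 253 to 602 after cGAMP. The part of fibroblasts in the protease changes was not tested.

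The genes whose pattern was nearest to each chemokine were taken as those with the smallest root mean square difference in centred log2(FPKM + 1) over the 18 libraries. For Ccl2 these were Mx1 (0.51), Cmpk2 (0.54) and Ccl5 (0.59), against a standard deviation of 2.65 for Ccl2 itself. Ccl5 was nearest to Ifit3b (0.49), Mx1 (0.52) and Cd274 (0.54), and Ccl7 to Daxx (0.52), Ifih1 (0.58) and Lipg (0.60). The named neighbours include the known interferon-stimulated genes Mx1, Cmpk2, Ifit3b and Ifih1, and whether the others are interferon-stimulated was not examined. Cx3cl1 was nearest to Myd88 (0.25), Hap1 (0.27) and Hmga1b (0.30), and Cxcl16 to Loxl3 (0.29), Il1rn (0.30) and Psme2 (0.32). Cxcl1 was nearest to Plat (0.37), Enc1 (0.37) and Rai14 (0.39), where its own standard deviation was 0.69, so the likeness was weaker in proportion. Cxcl12 was nearest to Foxs1 (0.20), Synm (0.21) and Map3k20 (0.22), of which Foxs1 is known as a gene of pericytes and Synm as an intermediate filament gene of muscle. These values describe likeness over 18 libraries that share 6 groups and carry no test.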

How the data were processed

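RNA was sequenced from sorted ECs of 18 samples, in 6 groups of 3. Per the labels and methods, the authors aligned reads to mm10 with STAR 2.7 and counted them with HTSeq, and FastQC was also named in the submitters' processing notes. The deposited values were FPKM per gene, and how the authors computed FPKM and whether counting used strand are not given in the sources used here. Whole reads were recovered from the FPKM steps for 99.99% of 16248 genes (within 0.02 reads), giving 9178021 to 12187346 reads per library, and each library's FPKM denominator deviated by at most 0.01% from a constant times its median-of-ratios size factor. The denominator divided by the recovered reads ran from 0.736 in implanted cGAMP 1 to 1.155 in normal PBS 1, so levels between libraries differ from those scaled by total reads.

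Genes with at least 1 FPKM in at least 3 libraries were tested (13983, 2265 left out) with limma 3.58.1 (R 4.3.3) on log2(FPKM + 1), with 1 mean per group over all 18 libraries, 9 contrasts, two-sided moderated tests and Benjamini-Hochberg adjustment over all tested genes. Called genes had an adjusted p under 0.05 and at least a 2-fold change. On simulated data with 199 genes changed by a log2 of 2 in the comparison of implanted ECs (13389 genes), 94.5% were recovered with 3 false calls. The changed genes were drawn only from those with more reads, and the same simulated dispersion was used for all genes and groups. The rate therefore does not describe genes with few reads, such as Ccl2, Ccl5 and Ccl7 under PBS. Figures and counts used Python 3.11.15, scipy 1.17.1 and matplotlib 3.10.9.

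Of the value columns, 0 matched no sample. Columns of the normal fat pad name no tissue and were assigned by elimination. The methods give 3 mice per group from independent experiments, without saying which libraries share one, so p-values measure the spread between these libraries. Replicate pairs differed beyond counting noise (chi-square per gene 4.09 to 31.5 over 18 pairs). Some symbols, 19 in all, had been turned into dates by a spreadsheet. The members and lists were chosen with earlier results of these data known. Named genes were the 7 members, up to 5 called genes of each list with the largest change per cGAMP comparison, all of a list of 5 or fewer, the 3 nearest genes of each member, and defining markers. Alternatives covered the pseudocount, filters, scaling, a voom fit on recovered reads, a replicate block, the fold limit and each library left out.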

Additional observations from a re-analysis of the deposited data

Results flagged for a closer look

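The response to cGAMP differed between tissues, by the limma test of the difference of log2 changes with at least a 2-fold difference, for the following genes. Among the 7 chemokines described above, the implanted response exceeded the normal one for Ccl2 (1.54), Ccl5 (1.08), Ccl7 (1.90) and Cxcl16 (1.04), the MMTV-PyMT response exceeded the normal one for Ccl5 (1.84), and the implanted response exceeded the MMTV-PyMT one for Cx3cl1 (1.14). Of 28 alternative settings, the implanted minus normal call was lost in 22 for Ccl2, 11 for Cxcl16, 9 for Ccl5 and 1 for Ccl7. The Cx3cl1 call was lost in 3, and the Ccl5 call for MMTV-PyMT minus normal ECs in 0.

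Among other chemokines, Ccl11 rose by 1.87 more in log2 in implanted than in normal ECs (adjusted p = 0.00601) and Ppbp by 1.54 more (adjusted p = 0.0162). For Cxcl9 the difference was -2.64 for implanted minus MMTV-PyMT (adjusted p = 0.00109) and 1.68 for MMTV-PyMT minus normal ECs (adjusted p = 0.0267). For Cxcl10 it was -1.66 for implanted minus MMTV-PyMT (adjusted p = 0.00251) and -1.60 for implanted minus normal ECs (adjusted p = 0.00195). The PBS mean of Cxcl9 was 235 FPKM in implanted ECs against 2.09 in MMTV-PyMT and 5.07 in normal ECs.

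Among receptors and proteases, the Ccrl2 response in implanted ECs exceeded the MMTV-PyMT one by 1.55 (adjusted p = 0.000856) and the normal one by 2.30 (adjusted p = 1.7e-05). The Ackr1 response exceeded that of normal ECs by 1.40 in implanted (adjusted p = 0.00842) and by 1.14 in MMTV-PyMT ECs (adjusted p = 0.0479). Dpp4 differed by 1.09 for implanted minus MMTV-PyMT ECs (adjusted p = 0.0276), and Mmp2 by 1.13 for implanted minus MMTV-PyMT (adjusted p = 0.0179) and 1.26 for implanted minus normal ECs (adjusted p = 0.00619).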

How the results depend on the processing

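Of 1764 member values under the alternatives, 1673 kept direction and side of the threshold. The counts of chemokines called after cGAMP stayed within 1.5 times 4, 5 and 5 in every alternative, and the causes of the changes below were not tested. The count for implanted minus MMTV-PyMT ECs was 2 with a pseudocount of 0.1 or voom (1 of them higher, Ccl5 lower), and 2 with scaling by total recovered reads or quantile normalization, where Ccl5 and Cxcl1 were lower, 0 were higher and the Cx3cl1 call was lost. For implanted minus normal ECs it was 1 with a pseudocount of 0.1, with total reads, with quantile normalization or without the 3 libraries with raised leukocyte markers (chosen after seeing the data), and 0 with voom. For MMTV-PyMT minus normal ECs it was 2 with a mean FPKM of at least 5. Under PBS it was 5 for implanted against normal ECs with a pseudocount of 0.1 or no fold limit, and 1 for MMTV-PyMT against normal ECs with quantile normalization or without the 3 libraries.

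Leaving out each library, the counts ranged from 0 to 2 for implanted minus MMTV-PyMT (0 without MMTV-PyMT cGAMP 2, 2 without implanted cGAMP 1 or MMTV-PyMT PBS 1), 1 to 4 for implanted minus normal, 1 to 2 for MMTV-PyMT minus normal (2 without normal cGAMP 1, implanted cGAMP 1 or implanted cGAMP 3), and under PBS 2 to 4 for implanted against normal and 1 to 2 for MMTV-PyMT against normal ECs (1 without normal PBS 2, normal PBS 3, MMTV-PyMT PBS 1 or MMTV-PyMT PBS 2).

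Signs turned in 12 values, none of them called. Cxcl12 in MMTV-PyMT ECs after cGAMP was -0.01 with total reads, and -0.01 (without MMTV-PyMT cGAMP 2) to 0.20 with 1 library left out. Cxcl1 in implanted ECs after cGAMP was -0.08 with total reads, -0.05 with quantile normalization and -0.11 (without implanted cGAMP 1) to 0.50 with 1 library left out. Ccl7 in MMTV-PyMT against normal ECs under PBS was -0.03 without normal PBS 3 or the 3 libraries, -0.01 without MMTV-PyMT PBS 1 and at most 0.07 with 1 left out. Cxcl12 for implanted minus normal ECs was 0.17 without normal cGAMP 3, 0.01 without implanted PBS 1 and 0.05 without implanted cGAMP 3, with a lowest value of -0.26. Cx3cl1 in implanted against normal ECs under PBS ran from -0.20 to 0.06 (without implanted PBS 2). With total reads the median change of all genes after cGAMP was -0.247 in implanted and -0.143 in MMTV-PyMT ECs, against -0.014 and -0.037 in the main fit.

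Over 45 same-number pairs the correlation of deviations ran from -0.345 to 0.294 (median -0.0132). Over 90 pairs of different number it ran from -0.333 to 0.369 (median 0.00974). These ranges cannot show whether some libraries shared an experiment. As a block, replicate numbers changed the call of Ccl2 for implanted minus normal ECs (1.54, adjusted p = 0.0541, count 3) and no other call of the 7 genes. Depth limits Ccl5 in MMTV-PyMT ECs under PBS, at 1 to 3 reads, and Ccl2 and Ccl7 under PBS.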
